A study of Homo sapiens with 6 samples.

Results

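The 9 genes described here encode SALL1, SALL2, SALL3, SALL4, PAX2, PAX8, EYA1, LHX1 and ONECUT1, transcription factors and cofactors of the developing kidney and related organs. They were 9 of 57123 genes with counts, and all 9 were among the 25125 genes that passed the filter on low counts. The genes were picked by name when their values in WT and MUL1(−/−) libraries were already known. Their levels, fold changes and calls are therefore given as a description, and no p-value is given for them. RNA was sequenced from HEK293, an established human embryonic kidney cell line, with 3 libraries for WT cells and 3 for cells labelled MUL1(−/−). MUL1 is an E3 ubiquitin ligase of the outer mitochondrial membrane, and the study compared cells with and without it. Both lines were grown in DMEM with fetal calf serum, glutamine, penicillin and streptomycin, and no other treatment is given. The study states that MUL1 was inactivated by CRISPR-Cas9, while the number of clones behind the RNA libraries is not given in the sources used here. The study's methods describe its quantitative data in general as coming from independent experiments, without naming the cultures of these libraries. The spread between libraries may therefore be technical in part, and a difference between clones cannot be told apart from a difference between genotypes.

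In the embryo, EYA1, SALL1, PAX2, SIX2 and WT1 act in the nephron progenitors of the metanephric mesenchyme, which secrete GDNF. GDNF signals through the receptor RET and its coreceptor GFRA1 on the ureteric bud, where PAX2, PAX8 and LHX1 also act. SALL proteins are zinc finger factors, most of which recruit the NuRD histone deacetylase complex, and SALL4 is best known from pluripotent cells. ONECUT1 is a cut homeodomain factor of liver and pancreas, and SALL3 is best known from limb, nerve and palate development.

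Gene counts, summed over exon bins (stretches of a gene between neighbouring exon edges), totalled 121917971 to 142803296 per library. Levels are given as CPM, the count scaled to library size with TMM factors. The floor was set at 3 counts, which is 0.0212 to 0.0242 CPM in these libraries. MUL1 itself had 15.4, 15.2 and 19.0 CPM in WT and 18.7, 16.7 and 19.2 CPM in the libraries labelled MUL1(−/−), so its RNA level did not check the labels. Of 10 HEK293 markers 9 passed the filter on low counts, and KRT8, VIM and NEFM were among those counted in every library. Levels differed between genotypes in both directions, with 2 markers higher and 3 lower at an adjusted p under 0.05 (edgeR). NEFM, with 29.4% of its counts in bins that another gene overlaps, rose from 1.74 ± 0.0852 to 3.64 ± 0.448 CPM (1.06 on the log2 scale, adjusted p = 2.09e-05, edgeR; SD, n = 3 each). KRT8 went from 324 ± 18.7 to 170 ± 12.1 CPM (-0.93 on the log2 scale, adjusted p = 2.05e-07, edgeR) and VIM, with 53.8% of its counts in bins that another gene overlaps, from 842 ± 93.1 to 665 ± 61.7 CPM (-0.34, adjusted p = 0.00570, edgeR; SD, n = 3 each). Among mature nephron markers, UMOD and AQP2 lay at or under 3 counts on average, whereas LRP2 had 35.9 ± 1.91 CPM in WT (SD, n = 3). SLC5A2 had 23.4 ± 0.405 CPM in WT (SD, n = 3), but 98.5% of its counts were in bins that another gene overlaps, so it does not show that this marker is read.

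The largest difference among the members was in SALL3, which was nearly silent in WT and well counted in the libraries labelled MUL1(−/−). PAX2 and ONECUT1 were lower there. Call rules were an adjusted p under 0.05 (edgeR's quasi-likelihood test) with an absolute log2 fold change above 1, and by them 1 member was higher (SALL3) and 2 were lower (PAX2 and ONECUT1). Over all tested genes 8.11% were called, 4.23% higher and 3.87% lower. In 6 of the 9 members the genotypes did not overlap, as was so for 48.5% of all tested genes. These shares stand beside the members' counts only as background, since the same contrast was known when the members were picked.

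SALL3 (ENSG00000256463) lies on chromosome 18 from 78980275 to 79002677 on the plus strand (GRCh38). It had 0.0236, 0.0141 and 0.0159 CPM in the WT libraries, and 7.33, 6.82 and 7.44 CPM in those labelled MUL1(−/−). The WT libraries held 3, 2 and 2 counts, at or under the floor in each, against 927, 854 and 922 counts. Every library labelled MUL1(−/−) was thus far above every WT library. In the most counted exon bin, the 14th from the 5′ end with 2343 bases, the WT libraries held 1 count in all and those labelled MUL1(−/−) 710. Scaled to library size this was a ratio of 746 with an exact 95% interval of 133 to 29494, which covers counting error only. The fitted log2 fold change was 8.59 (SE 0.22), a value that depends on the prior count because WT was so low.

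SALL3 counts covered the whole gene in the libraries labelled MUL1(−/−). All 15 exon bins were counted in each of the 3 libraries, the first exon with 12, 10 and 9 counts. In WT 7 of the 15 bins held any count, and the first exon held none. In these bulk libraries a gene read in fewer cells and a gene read less in every cell cannot be told apart, so the level of SALL3 in single cells is not known. The plot of exon bins shows this pattern beside that of PAX2.

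**Figure D1:**
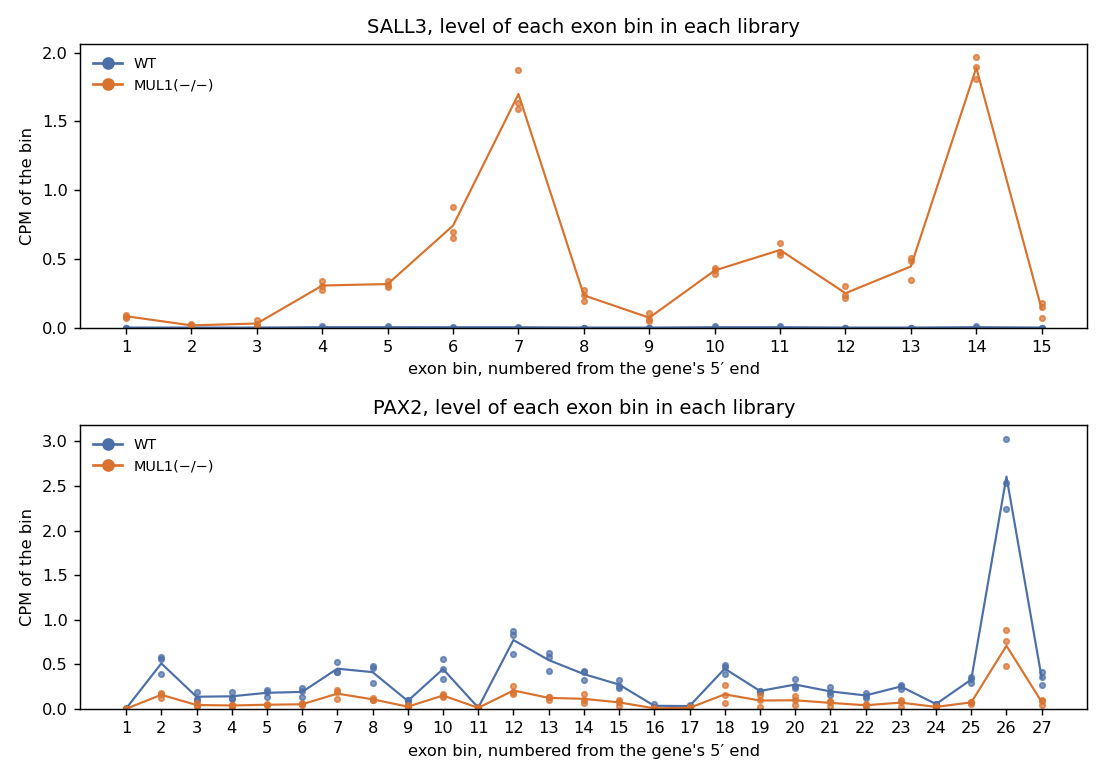
CPM of each exon bin of SALL3 (top) and PAX2 (bottom), numbered from the 5′ end, with points for the 3 libraries of each genotype and lines for their means. WT stayed next to 0 over all 15 SALL3 bins, while in PAX2 both genotypes had the same peaks and the libraries labelled MUL1(−/−) were lower along the gene.

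The sequence upstream of SALL3 is shown because the gene was counted in 1 genotype only above the floor and its start region is unusually rich in CG dinucleotides, the sites of DNA methylation. ONECUT1 is shown beside it as a member that differed in the other direction. Both are the 250 bases before the start site in RefSeq (GRCh38.p14), written 5′ to 3′ on the gene's strand, with each CG in capitals. The SALL3 window is chr18:78979568-78979817 on the plus strand and the ONECUT1 window chr15:52790337-52790586 on the minus strand.
SALL3 upstream window: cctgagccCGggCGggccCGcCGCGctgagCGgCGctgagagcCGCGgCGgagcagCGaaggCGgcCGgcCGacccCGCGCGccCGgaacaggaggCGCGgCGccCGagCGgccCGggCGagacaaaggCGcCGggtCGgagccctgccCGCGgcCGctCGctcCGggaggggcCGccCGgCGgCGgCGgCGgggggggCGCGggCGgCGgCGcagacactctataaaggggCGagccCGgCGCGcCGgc
ONECUT1 upstream window: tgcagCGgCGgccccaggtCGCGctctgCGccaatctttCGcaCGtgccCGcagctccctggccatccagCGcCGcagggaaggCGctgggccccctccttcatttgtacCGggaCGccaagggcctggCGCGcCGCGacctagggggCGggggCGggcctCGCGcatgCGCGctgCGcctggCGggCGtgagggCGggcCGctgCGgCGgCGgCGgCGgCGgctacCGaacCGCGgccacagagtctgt

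The SALL3 window held 49 CG dinucleotides, more than 99.8% of 35116 windows of the same length before RefSeq starts, whose median was 11. Its GC content was 84.4%. The ONECUT1 window held 37 CG dinucleotides, more than 96.0% of windows. The letters TATAAA, on either strand, occurred in the SALL3 window and in 10.7% of all windows. Letters of the hypoxia response core, ACGTG and GCGTG on either strand, occurred in the ONECUT1 window and in 18.5% and 32.2% of all windows, and neither occurred in that of SALL3. These are matches of letters and say nothing of a factor's binding, and methylation was not measured.

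Next to SALL3 lies LINC01896 (ENSG00000263146), a long noncoding RNA gene on chromosome 18 from 78976555 to 78979074 on the minus strand, so that the 2 genes point away from each other. The gap between them in the files is 1201 bases, and the SALL3 window shown above lies inside it. LINC01896 had 1, 0 and 2 counts in the WT libraries and 145, 162 and 241 counts in those labelled MUL1(−/−), or 1.15, 1.29 and 1.94 CPM in the latter. It was the 1 gene called among the 10 nearest tested genes of SALL3, 5 on each side, and it was higher (adjusted p = 1.10e-08, edgeR's quasi-likelihood test). Like SALL3, LINC01896 passed the filter on low counts only through the libraries labelled MUL1(−/−). The neighbours were chosen after values were seen, so this p is a description and lends no support. ATP9B on the other side of SALL3 had 16.2 ± 0.508 CPM in WT and 19.7 ± 2.89 CPM in the libraries labelled MUL1(−/−) (SD, n = 3 each). This was a difference of 0.29 on the log2 scale (adjusted p = 0.0353 by edgeR, SE 0.10). NFATC1, the farthest of the 10 on that side, was at -0.46 on that scale (adjusted p = 4.76e-04 by edgeR, SE 0.08). Besides LINC01896 the 10 genes thus lay between -0.46 and 0.71 on the log2 scale, and the large difference was found in this divergent pair within 2.71 Mb.

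The other SALL genes were counted in both genotypes. SALL1 (ENSG00000103449, chromosome 16, 51135975 to 51151367), the family member required for outgrowth of the ureteric bud, had 17.0, 15.8 and 16.4 CPM in WT and 16.3, 14.7 and 17.2 CPM in the libraries labelled MUL1(−/−). The ranges overlapped, and the log2 fold change was -0.03 (SE 0.09). Among the first exons of SALL1, the most upstream one was counted most, with 226, 165 and 153 counts in WT and 166, 140 and 201 in the other genotype. An alternative first exon held 5, 9 and 4 counts against 10, 9 and 19, and a second one 4, 7 and 10 against 2, 2 and 2, so both were rarely read in either genotype.

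SALL2 (ENSG00000165821, chromosome 14, 21521081 to 21537216), a family member linked to growth arrest, had 35.8, 32.5 and 33.4 CPM in WT and 41.1, 38.5 and 40.6 CPM in the libraries labelled MUL1(−/−). The lowest library labelled MUL1(−/−) was above the highest WT library, and the log2 fold change was 0.24 (SE 0.07). All 13 exon bins with at least 20 WT counts were higher, by 0.18 to 0.47 on the log2 scale. The upstream first exon of SALL2 held 9 counts over the WT libraries and 3 over the others, against 152 and 164 in the first bin of the downstream first exon, so the downstream start was the one read in both genotypes. Of the SALL2 counts, 16.7% lay in bins shared with an antisense gene, and whether the counting used the strand is not given in the sources used here.

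SALL4 (ENSG00000101115, chromosome 20, 51782331 to 51802520), which maintains pluripotent cells, was read at a low level. It had 0.653, 0.728 and 0.460 CPM in WT and 0.498, 0.663 and 0.218 CPM in the libraries labelled MUL1(−/−). The ranges overlapped, with a log2 fold change of -0.42 (SE 0.31). Without MUL1(−/−) replicate 3, the lowest library, it was -0.08. The 4 SALL genes therefore did not move together, and SALL3 was the sole member of the family with a difference of more than 1 on the log2 scale.

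PAX2 (ENSG00000075891, chromosome 10, 100735603 to 100829941), a paired box factor required for nephric duct and nephron formation, was lower in the libraries labelled MUL1(−/−). It had 10.7, 9.84 and 7.83 CPM in WT and 2.89, 3.35 and 1.93 CPM in the others. The highest of the latter was below the lowest WT library, and the log2 fold change was -1.80 (SE 0.17). All 23 exon bins with at least 20 WT counts were lower, by -2.19 to -1.11 on the log2 scale with a median of -1.88. The lower level was thus seen along the gene and not in 1 exon.

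PAX2 has 2 start regions in RefSeq, and their sequences are shown because only the downstream one was followed by a counted first exon. They are the 250 bases before each start, chr10:100735146-100735395 and chr10:100745332-100745581 (GRCh38.p14, plus strand), with each CG in capitals. The third sequence is a cassette exon of PAX2 in GENCODE 29, at chr10:100786943-100787011, in capitals between 10 bases of the exons on either side in the spliced transcript.
PAX2 upstream start: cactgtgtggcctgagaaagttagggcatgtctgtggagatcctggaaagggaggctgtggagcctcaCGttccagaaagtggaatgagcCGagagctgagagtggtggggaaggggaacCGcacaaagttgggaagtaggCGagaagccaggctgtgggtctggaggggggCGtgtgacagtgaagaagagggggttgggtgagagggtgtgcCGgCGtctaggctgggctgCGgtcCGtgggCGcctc
PAX2 downstream start: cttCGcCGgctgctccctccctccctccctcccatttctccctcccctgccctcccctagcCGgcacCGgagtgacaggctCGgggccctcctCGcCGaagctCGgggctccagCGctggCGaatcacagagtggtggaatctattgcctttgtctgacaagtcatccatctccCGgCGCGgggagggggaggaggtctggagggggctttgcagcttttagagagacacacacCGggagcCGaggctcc
PAX2 cassette exon: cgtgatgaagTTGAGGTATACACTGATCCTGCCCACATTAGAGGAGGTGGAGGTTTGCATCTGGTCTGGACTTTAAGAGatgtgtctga

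The first exon after the upstream start held 1 count in all 6 libraries together. The first bin of the downstream first exon held 71, 82 and 49 counts in WT and 23, 21 and 15 in the libraries labelled MUL1(−/−). Both genotypes thus read PAX2 from the downstream start. Its window held 15 CG dinucleotides and that of the upstream start 10, near the median of 11 over all windows. The 69-base cassette exon, coding and present in full in 1 of 9 PAX2 transcripts of the annotation, held 7, 6 and 12 counts in WT and 3, 3 and 0 in the libraries labelled MUL1(−/−). The exon before it held 87, 105 and 70 counts against 23, 34 and 12. The cassette exon was thus counted less than its neighbour in both genotypes, and its counts were too few to compare its use.

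Genes around PAX2 were also lower. All 10 of its nearest tested genes, 5 on each side within 0.614 Mb, had negative log2 fold changes, from -2.33 to -0.26 with a median of -0.66. Each of the 10 had an adjusted p under 0.05 and 3 passed both thresholds (edgeR's quasi-likelihood test). SEMA4G, a semaphorin, fell from 17.9 ± 1.76 to 5.15 ± 0.431 CPM (SD, n = 3 each), which was -1.80 on the log2 scale (adjusted p = 9.29e-09 by edgeR, SE 0.11). OLMALINC, a long noncoding RNA gene, fell from 8.44 ± 0.751 to 3.28 ± 1.73 CPM (SD, n = 3 each). HIF1AN, the asparagine hydroxylase that acts on HIF-1α and the nearest gene before PAX2, was at -0.31 (SE 0.07, adjusted p = 0.00234, edgeR). Less the median of these 10 genes, the PAX2 log2 fold change was -1.14 in place of -1.80. The part of the surrounding region in the PAX2 value was not tested.

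PAX8 (ENSG00000125618, chromosome 2, 113215997 to 113278950), a paired box factor that acts with PAX2 in the nephric duct, was barely counted. It had 6, 11 and 9 counts in WT and 10, 17 and 16 counts in the libraries labelled MUL1(−/−), or 0.0472, 0.0778 and 0.0714 against 0.0791, 0.136 and 0.129 CPM. The ranges were next to each other without overlap, and the log2 fold change was 0.79 (SE 0.41). Of these counts 62.3% lay in bins shared with PAX8-AS1 on the other strand, which had 0.204 ± 0.0513 and 0.333 ± 0.0600 CPM (SD, n = 3 each). Since use of the strand in counting is not given, reads of the 2 genes may be mixed in those bins. By the size of the log2 fold change alone, PAX8 was the nearest member outside the threshold. ONECUT1, at -1.16, was the nearest inside it. PAX8 was called under none of 12 other settings, among them 1 with a log2 fold change of 1.01.

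EYA1 (ENSG00000104313), a phosphatase and coactivator that works with sine oculis homeobox factors such as SIX2, had 9.24, 10.0 and 9.45 CPM in WT and 10.8, 9.70 and 12.2 CPM in the libraries labelled MUL1(−/−). The ranges overlapped, with a log2 fold change of 0.19 (SE 0.10). Another gene overlapped the bins that held 11.5% of its counts.

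LHX1 (ENSG00000273706, chromosome 17, 36936785 to 36944612), a LIM homeodomain factor of the nephric duct and early nephron, had 2.44, 2.41 and 2.37 CPM in WT and 1.60, 1.96 and 1.38 CPM in the libraries labelled MUL1(−/−). Every one of the latter was below every WT library, and the log2 fold change was -0.55 (SE 0.15). All 13 exon bins with at least 20 WT counts were lower, by -0.92 to -0.09 on the log2 scale. Its 10 nearest tested genes had a median of 0.55 in the other direction, and less that median LHX1 was at -1.10. Another gene overlapped the bins that held 18.9% of the LHX1 counts.

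ONECUT1 (ENSG00000169856, chromosome 15, 52756989 to 52791078) had 1.11, 1.24 and 1.02 CPM in WT, and 0.522, 0.511 and 0.476 CPM in the libraries labelled MUL1(−/−). The genotypes did not overlap, and the SE of its log2 fold change of -1.16 was 0.18. All 7 exon bins with at least 20 WT counts were lower, by -1.85 to -0.82 on the log2 scale. In its most counted bin, of 616 bases, the libraries held 108 counts in WT and 52 in the other genotype, a ratio of 0.506 with an exact 95% interval of 0.356 to 0.710 for counting error. That bin gave a log2 fold change of -0.96, short of the fold threshold. Of its 10 nearest tested genes none was called by edgeR, DESeq2 or limma-voom. An adjusted p under 0.05 (edgeR) was found for 3 of them, with log2 fold changes of 0.21, -0.24 and 0.49. The median of the 10 was 0.04. Less that median ONECUT1 was at -1.20, though these neighbours span 3.01 Mb, against 0.614 Mb around PAX2.

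To compare the members with each other, levels were divided by exon length and given as CPM per kb. In WT the order from the highest was SALL2 (6.30 ± 0.321), SALL1 (2.90 ± 0.105), EYA1 (1.85 ± 0.0804), PAX2 (1.51 ± 0.237), LHX1 (0.493 ± 0.00683), ONECUT1 (0.292 ± 0.0298), SALL4 (0.106 ± 0.0239), PAX8 (0.00885 ± 0.00218) and SALL3 (0.00242 ± 6.8e-04), each in CPM per kb with its SD over 3 libraries. The ranges of neighbours in this order did not overlap, though EYA1 and PAX2 were close, with 1.79 for the lowest EYA1 library and 1.72 for the highest PAX2 library. By the longest bin of each gene in place of all bins, PAX2 (1.27) and EYA1 (1.26) changed places in WT, as did SALL4 (0.0964) and ONECUT1 (0.0304), so the order of these pairs depends on how bins are summed. In the libraries labelled MUL1(−/−), SALL3 was in place 4 with 0.973 ± 0.0444 CPM per kb, between EYA1 (2.11 ± 0.242) and PAX2 (0.436 ± 0.116). SALL3 thus went from the least read of the 9 genes to a level above PAX2, LHX1 (0.337 ± 0.0596) and ONECUT1 (0.131 ± 0.00621). There PAX2 and LHX1 overlapped, while the other neighbours in the order did not. By the longest bin SALL4 and ONECUT1 changed places there too.

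The profiles most like those of the 3 called members over the 6 libraries were sought among 14534 genes of at least 1 CPM on average, by the distance between mean-centred log2 CPM values. For SALL3 these were IFI16, a DNA sensor (distance 0.839), and ZNF320, a zinc finger gene (0.983). IFI16 went from 0.240 ± 0.0251 to 39.6 ± 4.35 CPM and ZNF320 from 0.0281 ± 0.00601 to 5.59 ± 0.510 CPM (SD, n = 3 each). In WT, ZNF320 was thus near the floor as SALL3 was, while IFI16 was low but well above it. For PAX2 they were CDKN1C, a cell cycle inhibitor (0.243), and HES2 (0.269), and for ONECUT1 they were C6orf132 (0.132) and PWWP3A (0.151). All 6 libraries are shared by each pair, and a likeness over 2 groups of 3 is mainly a likeness of fold change.

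Other transcription factors of kidney development moved in both directions. Of 51 on the list, 44 were tested, and 4 rose and 4 fell past both thresholds, with a median log2 fold change of 0.09 against -0.01 over all tested genes. The share called was 18.2%, against 8.11% over all tested genes. The lists used here, like the members, were drawn up with earlier results of these data known. Among those that fell was WT1 (the gene), a zinc finger factor of the nephron progenitor and podocyte, from 7.33 ± 0.398 to 2.54 ± 0.466 CPM (SD, n = 3 each). This was -1.53 on the log2 scale (adjusted p = 5.90e-07 by edgeR, SE 0.13). HOXC11, a paralog of the HOX11 genes that pattern the metanephros, fell from 14.2 ± 1.07 to 4.56 ± 0.638 CPM (log2 fold change -1.64, adjusted p = 6.77e-08, edgeR). SIX2, which keeps nephron progenitors from differentiating, fell from 4.40 ± 0.250 to 2.12 ± 0.223 CPM (-1.05, adjusted p = 1.23e-05, edgeR), and without MUL1(−/−) replicate 1 it was at -0.97, short of the fold threshold. TBX18, a T-box factor of the ureteric mesenchyme, rose from 32.1 ± 2.29 to 98.1 ± 9.74 CPM (1.61, adjusted p = 2.77e-09, edgeR). FOXC1 rose with a log2 fold change of 1.08 (0.98 without MUL1(−/−) replicate 3) and MECOM with 1.06 (0.99 without WT replicate 2 and 0.97 without MUL1(−/−) replicate 3). SOX4, the most abundant gene of the list, had 155 ± 15.4 and 268 ± 16.0 CPM, with all its counts in bins shared with another gene.

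Of the ligands and receptors of kidney development, GDNF, its receptor and its coreceptor all fell. On this list 31 of 33 genes were tested, and 5 fell past both thresholds by edgeR and 4 each by DESeq2 and limma-voom, while none rose by any of them. Over all tested genes 3.87% were called lower by edgeR. At an unadjusted p under 0.05 (edgeR) 4 were higher and 14 lower, and the median log2 fold change of the list was -0.23. GDNF, the ligand, fell from 5.88 ± 0.313 to 1.87 ± 0.155 CPM (SD, n = 3 each), which was -1.65 on the log2 scale (adjusted p = 9.52e-08 by edgeR, SE 0.12). Of its counts 60.1% were in bins shared with another gene, and its own bins gave -1.59. GFRA1, the coreceptor, fell from 11.2 ± 0.945 to 3.97 ± 0.260 CPM (-1.49, adjusted p = 8.82e-08, edgeR). RET, the receptor tyrosine kinase, fell from 2.59 ± 0.597 to 1.09 ± 0.148 CPM (-1.24, adjusted p = 7.69e-05, edgeR). FGF8, a ligand needed for nephron formation, fell from 0.544 ± 0.0429 to 0.162 ± 0.0235 CPM (-1.74, adjusted p = 6.38e-05, edgeR). WNT9B, the inductive signal of the ureteric bud, was at -1.39 (adjusted p = 0.0498, edgeR) and kept its call under 3 of 13 other settings. It was not called by DESeq2 or limma-voom, nor without WT replicate 1 (-0.92), WT replicate 2 (-1.39), MUL1(−/−) replicate 1 (-1.13) or MUL1(−/−) replicate 3 (-1.25). For all 4 of GDNF, GFRA1, RET and FGF8 the highest library labelled MUL1(−/−) was below the lowest WT library. GFRA1, RET and FGF8 lie on chromosome 10, as PAX2 does, and GDNF lies on chromosome 5. FGF8 starts at 101770130, and PAX2 ends at 100829941. The part of chromosome location in these values was not tested.

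**Figure D2:**
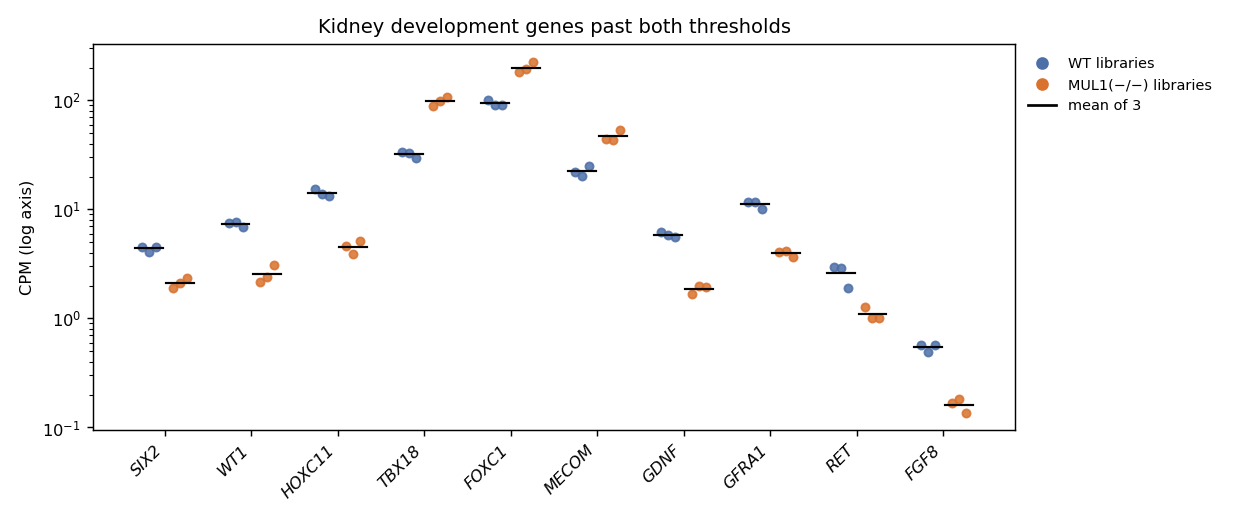
CPM of kidney development genes past both thresholds in the 6 libraries, on a log axis, with bars at the means of 3. SIX2, WT1, HOXC11, GDNF, GFRA1, RET and FGF8 were lower and TBX18, FOXC1 and MECOM higher in every library labelled MUL1(−/−) than in every WT library.

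Of 23 paralogs of the members 18 were tested, and 1 rose and 1 fell past both thresholds, with a median log2 fold change of -0.17. The share called was 11.1%, near the 8.11% over all tested genes. ISL1, a LIM homeodomain relative of LHX1, rose from 1.92 ± 0.154 to 5.20 ± 0.591 CPM (1.44, adjusted p = 8.65e-07, edgeR), and LHX8 of the same family was at -1.66 (adjusted p = 2.00e-04, edgeR). PAX6, the most abundant PAX relative, had 42.0 ± 2.17 and 37.7 ± 3.97 CPM (-0.16, adjusted p = 0.166, edgeR). EYA4 had 56.7 ± 0.674 and 61.8 ± 1.49 CPM (0.12, adjusted p = 0.162, edgeR), and ONECUT2 33.5 ± 2.56 and 28.4 ± 3.86 CPM (-0.24, adjusted p = 0.0688, edgeR). In WT the relative ONECUT2 thus had a higher level in CPM than ONECUT1, without regard to length.

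Of 18 genes for NuRD subunits and the cereblon ubiquitin ligase, which binds SALL4 in the presence of thalidomide, 1 passed both thresholds. The share called was 5.56%, near the 8.11% over all tested genes. CHD5, a chromodomain helicase of NuRD best known from neurons, fell from 11.4 ± 1.33 to 2.80 ± 0.0685 CPM (-2.03, adjusted p = 5.94e-09, edgeR). RBBP7 had 534 ± 77.6 and 844 ± 94.5 CPM (0.66, adjusted p = 1.04e-04, edgeR) and RBBP4 552 ± 8.32 and 437 ± 19.0 CPM (-0.34, adjusted p = 5.84e-04, edgeR), both short of the fold threshold. Of 14 pluripotency genes 7 were tested, and 28.6% of these were called. SOX2 rose from 8.83 ± 0.650 to 18.5 ± 1.42 CPM (1.07, adjusted p = 8.25e-07, edgeR) and UTF1 fell from 0.511 ± 0.0894 to 0.152 ± 0.0298 CPM (-1.74, adjusted p = 1.31e-04, edgeR), while SALL4 overlapped as described above.

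Some markers of cell types other than the labelled one also differed. The share called was 44.4% for fibroblast markers and 22.2% for HEK293 markers, with 1 of 4 tested adrenal markers called. For mature nephron markers it was 7.69%, near the 8.11% over all tested genes, and DESeq2 called 0 of them. Among 9 fibroblast markers LUM, DCN and COL3A1 were called higher and THY1 lower, and their summed level was 36.1 to 46.1 CPM in WT and 48.1 to 63.4 CPM in the libraries labelled MUL1(−/−). LUM, a matrix proteoglycan, rose from 1.11 ± 0.0766 to 9.45 ± 2.59 CPM (3.09, adjusted p = 6.80e-09, edgeR), while COL1A1 had 21.9 ± 2.53 and 16.8 ± 1.91 CPM. THY1, at -1.16 (adjusted p = 0.0263, edgeR), kept its call under 8 of 13 other settings. It was not called by DESeq2, nor without WT replicate 2 (-0.88), MUL1(−/−) replicate 2 (-1.08) or MUL1(−/−) replicate 3 (-0.94). Of 22 mature nephron markers 13 were tested, and CALB1 was called higher, at 0 in 2 of the 3 WT libraries and 0.165 ± 0.0669 CPM in the other genotype. The summed level of the list was 111 to 125 CPM in WT and 103 to 114 CPM in the other genotype. That sum includes SLC5A2, at 23.4 and 22.2 CPM, with 98.5% of its counts in bins that another gene overlaps. Of 11 adrenal markers 4 were tested, with STAR called higher, and the summed levels were 1.24 to 1.60 and 1.94 to 2.44 CPM. Of 10 HEK293 markers 9 were tested, with NEFM called higher and ENO2 lower (ENO2 at -0.90 without MUL1(−/−) replicate 3), and the summed levels were 1513 to 1727 and 1058 to 1261 CPM. The part of these differences in the levels of the members was not tested.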

How the data were processed

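RNA was sequenced from 3 HEK293 WT and 3 MUL1(−/−) libraries, grouped by their titles. The authors deposited raw counts per exon bin, without normalization, for 597973 bins under 54848 gene identifiers. The submitters' processing notes name Trimmomatic 0.36, STAR 2.5.2b and the build GRCh38, while the counting program and annotation are not given in the sources used here. The study's methods state DESeq2's Wald test, and its thresholds were kept.

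Counts were summed over the bins of a gene. A read is counted in every bin it touches, so sums exceed reads. Bins of 2031 joined identifiers were divided among their genes by GENCODE 29 exons, and 15942 bins with 4.37% of the counts, which matched no gene or several, were left out. Genes were tested with edgeR 4.0.16 (R 4.3.3; TMM, filterByExpr, quasi-likelihood test, Benjamini-Hochberg adjustment), after the code was tested on simulated data. Calls needed an adjusted p below 0.05 together with a log2 fold change beyond 1 in either direction. The SE is the log2 fold change over the square root of F. DESeq2 1.42.0 and limma 3.58.1 were alternatives. Tables were made with Python 3.11.15. Intervals and floors (3 counts, 0.0212 to 0.0242 CPM) cover counting error only.

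The members and lists were chosen with earlier results of these data known. By rule, the text names every member, up to 3 called genes in each direction and the 3 most abundant genes per list, the nearest profiles, the genes overlapping a member and the most abundant paralog per family. Some genes that the rule names are not reported here. The further called genes and the unnamed-by-rule markers, chromosome neighbours, upstream windows and exon groups were chosen after values were seen. Libraries of a genotype differed by more than sampling noise (chi-square over degrees of freedom 2.96 to 10.9), and each was kept as a sample. Same-numbered libraries of the genotypes did not pair by the labels. Upstream sequences are from RefSeq (GRCh38.p14) and were found for 5 of the 9 members, and the cassette exon is from GENCODE 29 transcripts.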

Additional observations from a re-analysis of the deposited data

How the results depend on the processing

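SALL3 and PAX2 passed both thresholds under all 15 other settings, with log2 fold changes of 8.41 to 9.09 and -1.96 to -1.60. ONECUT1 passed them under 14, from -1.23 to -0.96, and missed the fold threshold when the most counted bin stood for the gene. SALL2, SALL4, PAX8, EYA1 and LHX1 kept their direction under every such setting that gave a value, and SALL1, near 0, under 12 of 15. The members were picked with this contrast known, and the settings share libraries. These counts therefore describe the processing and lend no support to the differences. Less the median of 10 chromosome neighbours, a setting chosen after seeing the data, PAX2 was at -1.14 and LHX1 at -1.10. Same-numbered libraries shared only a number, with deviations correlated at -0.0812, 0.157 and 0.100 across genes, and the replicate block gave 1955 called genes against 2037 without it. Leaving out 1 library gave 1950 to 2352. DESeq2 called 1898 genes. With at least 1 CPM in at least 3 libraries, where fewer genes were tested, 777 genes were called (42.6% of them higher, against 52.2% in the main test), 3 of the ligands and receptors, 1 paralog, 1 pluripotency gene, 0 nephron markers and 0 adrenal markers. The adjusted p alone, a looser rule, gave 9422 genes, 26 kidney transcription factors, 16 ligands and receptors, 8 paralogs, 7 SALL partners, 4 pluripotency genes, 4 nephron markers, 5 HEK293 markers and 2 adrenal markers. Library totals in place of TMM gave 1 HEK293 marker and 59.3% of calls higher. DESeq2 called 0 nephron markers, and the cause was not tested; edgeR called 1, limma-voom 1, and 5 had an unadjusted p under 0.05 (edgeR). Leaving out 1 library gave 1 to 2 nephron markers. No filter on low counts gave 58.8% of calls higher. By the longest bin in place of all bins, the WT level per kb of ONECUT1 was 0.0304, since that bin was little read. Depth limits SALL3, PAX8 and the cassette exon of PAX2, whose counts were few.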
